A study of Saccharomyces cerevisiae with 8 samples.

Results

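Peaks between tandem genes are the Rap1 peaks whose summit fell outside every protein-coding gene and between neighbours that are transcribed in the same direction, so that the gap holds the end of the upstream gene and the promoter of the downstream gene. They were chosen by position and orientation alone, among peaks on nuclear chromosomes with a midpoint over 50 kb from both chromosome ends, here called core peaks. Of 1240 peaks in 4 lists, 1013 were core peaks and 432 of these lay between tandem genes. Overlapping peaks of different lists made up 230 regions in 226 gaps.

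To compare where Rap1 binds in old and young cultures of the budding yeast Saccharomyces cerevisiae, cells were cross-linked, Rap1 was pulled down with an antibody, and the DNA that came with it was sequenced (ChIP-seq). The groups were cultures grown for 14 d and cultures grown for 16 h, with 2 biological repeats each, and 1 input library without antibody for each ChIP library. All were strain JDY86 in YPD, a rich glucose medium, at 30 °C. The chromatin came from bulk cells, with no separation of quiescent from non-quiescent cells. The share of either kind at 16 h or 14 d is not given in the sources used here. The peak lists were called by the authors against the inputs, which were not analysed here. The methods of the study describe JDY86 as the MATa parent of a histone mutant library, with met15Δ0, trp1Δ63, ura3Δ0, leu2Δ0 and his3Δ200 among its alleles, one printed as K2Δ0, and can1::MFA1pr-HIS3. In this background hht1-hhf1 was replaced by NatMX4 and hht2-hhf2 by a histone cassette marked with URA3, and both times shared these changes. The labels do not say which histone sequence the cassette held.

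Rap1 is a sequence-specific DNA-binding protein that caps telomeres, helps silence the mating-type loci and activates many strongly transcribed genes. In growing yeast it sits in the promoters of most ribosomal protein genes and of many glycolytic and translation genes, where it opens chromatin and recruits co-activators. A promoter between divergent genes can serve both neighbours, whereas a promoter between tandem genes has 1 start codon in front of it and the 3′ end of another gene behind it.

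The lists differed in depth more between repeats than between times. The genome background pileup, the number of fragments that a typical position carried, was 1.71 and 11.7 in 14 d repeats 1 and 2, and 0.414 and 8.87 in 16 h repeats 1 and 2. At the summits of tandem peaks the median pileup was 31, 100, 8 and 93 fragments in the same order. In 16 h repeat 1 these summits carried 5 to 42 fragments, so folds and ranks there rest on small counts. Peak names in 14 d repeat 2 contain the word merge, so runs may have been pooled there. Each difference between times is therefore given within each repeat as well, and with 2 libraries against 2 the exact permutation test cannot give p under 0.33.

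Tandem gaps are the most common kind of gap in the genome, and in each of the 4 lists a smaller share of them than of divergent gaps held a Rap1 peak, a difference given here as counts with no test. The core held 2498 tandem gaps (47.9% of 5212 gaps and 50.3% of their length, median 395.5 bp) and 1360 divergent gaps (26.1% and 33.3%, median 502 bp). A peak summit lay in 1.00%, 8.33%, 0.881% and 6.89% of the tandem gaps in 14 d repeat 1, 14 d repeat 2, 16 h repeat 1 and 16 h repeat 2. In the same order, 2.28%, 14.1%, 2.06% and 12.6% of the divergent gaps held one. A divergent gap has a start codon on either side and a tandem gap on 1 side, so these shares are per gap and not per promoter. The shares of gaps of any orientation were 1.09%, 7.81%, 0.979% and 6.68%, so the tandem share was close to this background in each list. Convergent gaps, which hold no promoter, carried a summit in at most 0.517% of cases.

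**Figure D1:**
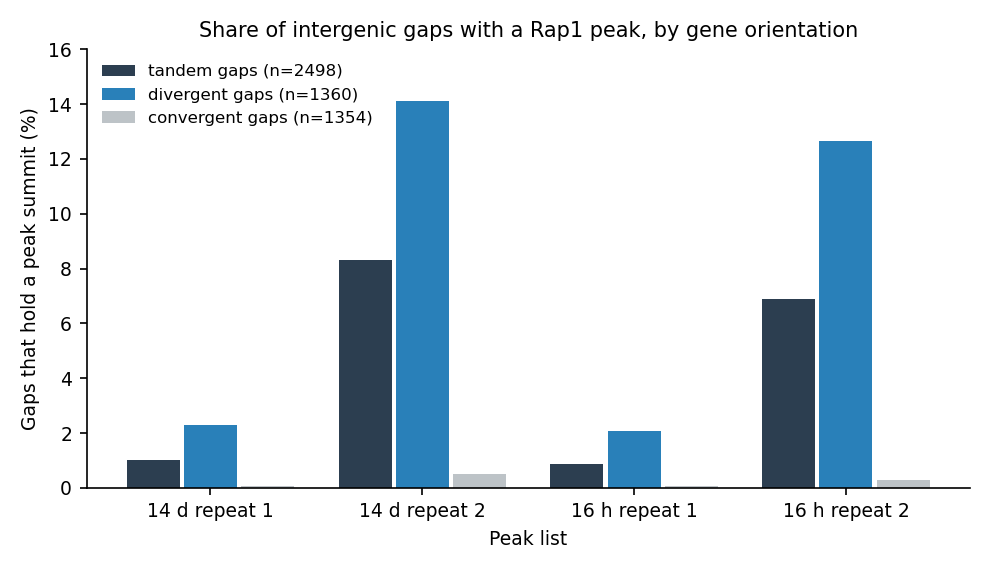
Percent of intergenic gaps of the chromosome cores that held a peak summit (y axis) in each of the 4 lists (x axis), by orientation of the flanking protein-coding genes. In every list the bar for tandem gaps stood between those for divergent and convergent gaps, for example 8.33%, 14.1% and 0.517% in 14 d repeat 2.

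Of the core peaks, 26 of 77 lay between tandem genes in 14 d repeat 1 (33.8%, exact binomial 95% interval 23.4 to 45.4%) and 210 of 474 in 14 d repeat 2 (44.3%, 39.8 to 48.9%). The counts were 22 of 56 in 16 h repeat 1 (39.3%, 26.5 to 53.2%) and 174 of 406 in 16 h repeat 2 (42.9%, 38.0 to 47.8%). Such intervals cover counting error only. The share averaged 39.0 ± 7.45% at 14 d and 41.1 ± 2.53% at 16 h (SD, n = 2 each), and the 4 intervals overlapped (two-sided exact permutation test, p = 1). The difference had opposite signs in the repeats, -5.52 points in repeat 1 and 1.45 points in repeat 2. Genes of either strand were involved about equally: 102 of the 210 peaks of 14 d repeat 2 and 82 of the 174 of 16 h repeat 2 lay between genes of the Watson strand.

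Most summits lay between 200 and 700 bp before the downstream start codon, with the tail of the distribution reaching far upstream. The median distance was 456 bp in 14 d repeat 1 and 399.5 bp in 14 d repeat 2, against 409.5 bp in 16 h repeat 1 and 339 bp in 16 h repeat 2. In the deeper lists the middle 50% of peaks lay between 275 and 606 bp (14 d) and between 232 and 528 bp (16 h). The fullest 100-bp bin ran from 300 to 400 bp at 14 d (42 of 210 peaks) and from 200 to 300 bp at 16 h (41 of 174). Within 100 bp of the start codon lay 7 of 210 and 4 of 174 summits. The peak itself, as opposed to its summit, reached the start codon in 28 of 210 and 10 of 174 cases.

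The distances at 14 d averaged 427.75 ± 39.95 bp and those at 16 h 374.25 ± 49.9 bp (SD, n = 2 each), a difference of 53.5 bp that was close to the spread between repeats (two-sided exact permutation test, p = 0.667). Within repeats it came to 46.5 bp (repeat 1) and 60.5 bp (repeat 2). The lists did not hold the same regions, and the part of this in the difference was not tested. Values for shared regions are given for repeat 2 only. At the 154 regions that both repeat 2 lists held between tandem genes, the median distance was 363.5 bp at 14 d and 349 bp at 16 h. The median difference per region was 1 bp. At the 54 regions listed only in 14 d repeat 2 the median was 454.5 bp, and at the 19 listed only in 16 h repeat 2 it was 224 bp.

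The upstream gene was nearer than the downstream start. The summit lay 302.5 and 274 bp (medians) past the end of the upstream gene in the 14 d repeats and 286 and 251.5 bp in the 16 h repeats. Between times this distance averaged 288.25 ± 20.2 bp at 14 d and 268.75 ± 24.4 bp at 16 h (SD, n = 2 each), which did not exceed the spread between repeats (two-sided exact permutation test, p = 0.667). Of the tandem peaks, 19 of 26 and 140 of 210 at 14 d, and 14 of 22 and 114 of 174 at 16 h, were closer to the upstream end than to the downstream start. The median difference per peak, distance to the upstream end minus distance to the start, was -93.75 bp on average (SD 16.2 over 4 libraries, negative in 4 of 4, two-sided exact sign-flip permutation test, p = 0.13, the smallest that 4 libraries allow).

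Compared with divergent promoters, tandem peaks lay farther from a start codon in all 4 libraries. The nearest start codon was at a median of 456, 399.5, 409.5 and 339 bp for tandem peaks and at 352, 303.5, 313 and 280 bp for divergent peaks, in 14 d repeats 1 and 2 and 16 h repeats 1 and 2. The mean difference was 88.9 bp (SD 20.3, n = 4 libraries, two-sided exact sign-flip permutation test, p = 0.13). A divergent peak has a start codon on either side and the nearer one was taken, so part of this gap follows from the geometry.

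**Figure D2:**
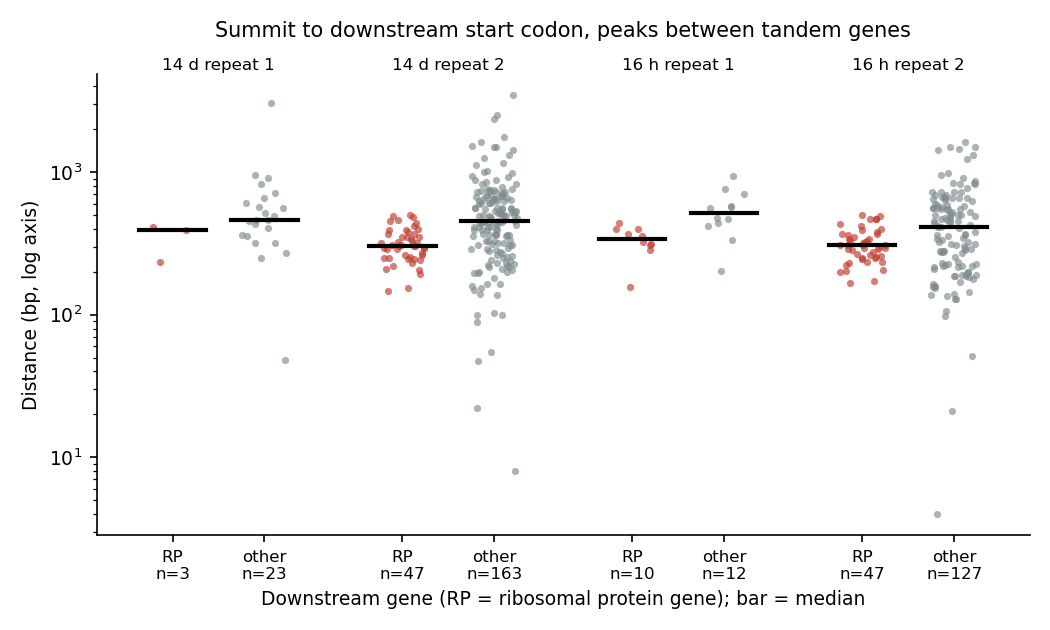
Distance from the summit of each tandem peak to the downstream start codon (y axis, bp, log axis) in the 4 lists, split by whether the downstream gene encodes a ribosomal protein (RP, red) or not (grey). Points are peaks and bars are medians. The 47 ribosomal protein peaks of 14 d repeat 2 lay between 146 and 498 bp, while the other peaks of that list lay between 8 and 3466 bp.

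The extremes of this range were short gaps and one very long one. The shortest distance was at YLR112W, behind YLR111W on chromosome XII, where the gap is 67 bp long and the summit lay 8 bp (14 d repeat 2) and 4 bp (16 h repeat 2) before the start. This was also one of the strongest regions, with fold enrichment of 18.5 and 47.0 in the 14 d repeats and 21.0 in 16 h repeat 2, and no peak in 16 h repeat 1. The longest was 3466 bp, before YIR018C-A in the gap that follows FLO11, which encodes a cell surface flocculin. It was listed in 14 d repeat 2 alone with a fold of 4.90. This peak was also the one just inside the 50-kb border, 51012 bp from the chromosome end. The one just outside, before OAF1, lay at 48367 bp.

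Fold enrichment, the summit pileup over the local background, ranked tandem peaks near the middle of each core list. The median fold of tandem peaks was 10.3 and 7.21 in the 14 d repeats and 6.01 and 8.06 in the 16 h repeats, with ranges of 3.01 to 24.4, 1.94 to 47.0, 3.52 to 10.6 and 1.84 to 46.5. Since fold moves with depth, peaks were compared by their percentile within a list. Tandem peaks had median percentiles of 47.4, 46.9, 46.4 and 52.2, the other core peaks of 50.6, 53.1, 53.1 and 49.0, and divergent peaks of 48.1, 55.8, 53.1 and 54.2. Tandem peaks ranked 3.24 points below the other core peaks (SD 4.52, lower in 3 of 4 libraries, two-sided exact sign-flip permutation test, p = 0.25) and 4.56 points below divergent peaks (SD 3.86, lower in 4 of 4, p = 0.13). Both differences changed sign among peaks with a -log10 q of at least 5.

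Ribosomal protein genes were the largest group downstream of tandem peaks. The fixed list held 137 genes of the cytoplasmic ribosome, and 57 of them lie downstream of a core tandem gap. A peak lay in that gap for 47 of the 57 in 14 d repeat 2 and for the same 47 in 16 h repeat 2 (82.5% each), read against the 8.33% and 6.89% of all tandem gaps. In the shallow lists it did so for 3 in 14 d repeat 1 (5.26%) and 10 in 16 h repeat 1 (17.5%). Their share of the tandem peaks was 11.5% and 22.4% at 14 d and 45.5% and 27.0% at 16 h, and in divergent gaps 19.4% and 30.5% of the peaks at 14 d and 42.9% and 33.7% at 16 h faced such a gene.

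The share of tandem peaks with a ribosomal protein gene downstream averaged 17.0 ± 7.67% at 14 d and 36.2 ± 13.0% at 16 h (SD, n = 2 each). It was 33.9 points lower at 14 d in repeat 1 and 4.63 points lower in repeat 2 (mean difference -19.3 points, two-sided exact permutation test, p = 0.33, the smallest possible). In repeat 2 the number of these genes was 47 at both times and the difference came from the other peaks, 163 at 14 d and 127 at 16 h. Between tandem and divergent peaks the share differed by -5.01 points (SD 5.11, lower for tandem peaks in 3 of 4 libraries, two-sided exact sign-flip permutation test, p = 0.25). A divergent peak was counted if either flanking gene encoded a ribosomal protein, a tandem peak by its downstream gene alone. The shares are therefore per peak and not per facing gene.

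In the deep lists the ribosomal protein regions were strong. Their fold ran from 4.56 to 40.1 (median 18.5) in 14 d repeat 2 and from 2.84 to 42.7 (median 13.9) in 16 h repeat 2, against medians of 5.32 and 5.88 for the other tandem peaks. They exceeded the core median in 43 of 47 and 39 of 47 cases. Their median percentile was 77.5 and 71.9 in these lists, against 36.7 and 39.2 for the other tandem peaks. The shallow lists did not show this order. The 3 peaks of 14 d repeat 1 had a median percentile of 17.5 against 53.2 for the others, and the 10 of 16 h repeat 1 had 46.4 against 46.4. Over the 4 libraries the difference averaged 9.47 points with an SD of 34.9 (two-sided exact sign-flip permutation test, p = 0.75).

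**Figure D3:**
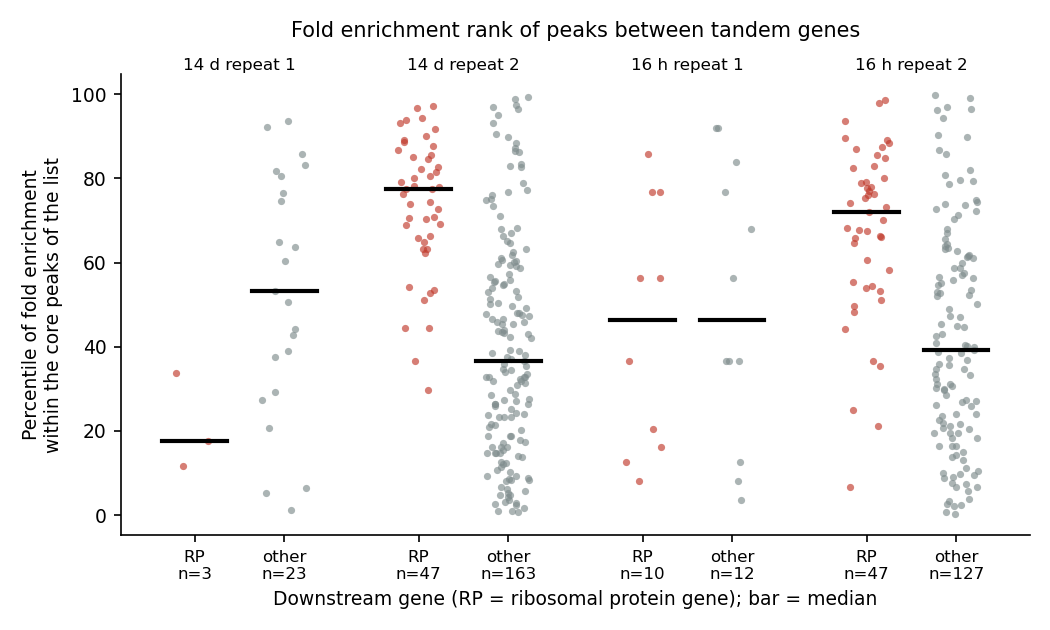
Percentile of fold enrichment of each tandem peak among the core peaks of its own list (y axis, 100 is the strongest) in the 4 lists, for ribosomal protein (RP, red) and other downstream genes (grey). Bars are medians: 77.5 against 36.7 in 14 d repeat 2 and 71.9 against 39.2 in 16 h repeat 2, with 17.5 against 53.2 in 14 d repeat 1 and 46.4 against 46.4 in 16 h repeat 1.

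Distances to ribosomal protein start codons were short and narrowly spread in each list. The medians were 393, 302, 338.5 and 307 bp in 14 d repeats 1 and 2 and 16 h repeats 1 and 2, against 460, 455, 516 and 411 bp for the other tandem peaks. The mean difference was -125 bp (SD 49.5, shorter in 4 of 4 libraries, two-sided exact sign-flip permutation test, p = 0.13). Their gaps were shorter as well, with medians of 634, 577, 632.5 and 577 bp against 903, 839, 891 and 757 bp.

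Among the strongest of these regions by rank over both repeat 2 lists were those before RPL2B, RPL23A, RPS30A, RPL41A and RPS6B, which encode proteins of the large (RPL) and small (RPS) ribosomal subunits. At RPL23A (chromosome II 60783 to 61282, release 64) the fold was 39.1 in 14 d repeat 2 and 24.0 in 16 h repeat 2. RPS30A had folds of 5.17 and 30.6 in the 14 d repeats and 23.2 in 16 h repeat 2. RPL41A stood at 33.6 against 18.4, and RPS6B at 25.4 against 22.5, in repeat 2. Of these 5 regions, RPL2B alone had a peak in 16 h repeat 1, and RPL2B and RPS30A had one in 14 d repeat 1.

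In some tandem gaps both neighbours encode ribosomal proteins, as between RPS9B and RPL21A and between RPL18B and RPS19B, where the gene named second is downstream. The folds were 23.2 and 27.3 in 14 d repeat 2, against 12.3 and 13.1 in 16 h repeat 2. The summits lay 331 and 370 bp before the downstream start at 14 d, and 330 and 367 bp at 16 h. Both gaps were also listed in 16 h repeat 1, at folds of 4.58 and 7.78.

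The other 10 ribosomal protein genes behind a tandem gap had no peak in it in any list. They were RPS8A, RPL4A, RPP1A, RPL4B, RPS26A, RPS28B, RPS22B, RPL31B, RPL15B and RPL9B, and their gaps ran from 123 to 1428 bp. At RPS26A a small open reading frame of 141 bp, YGL188C-A, stands between the gene and a strong peak. That summit had a fold of 24.9 in 14 d repeat 2 and 24.0 in 16 h repeat 2, lay 357 and 362 bp before YGL188C-A and 733 and 738 bp before RPS26A. It is counted here under YGL188C-A. These genes were chosen for naming after their values were seen.

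The 2 shallow lists held different members. Of the 25 tandem regions of 14 d repeat 1, 17 were absent from 16 h repeat 1, and 1 of these 17 was before a ribosomal protein gene, RPS30A. Of the 22 regions of 16 h repeat 1, 14 were absent from 14 d repeat 1, and 8 of these were before ribosomal protein genes. All 25 and all 22 had a peak in the deep list of their own time. The same counts over all core regions are not given here, so these are not read as particular to tandem regions. The regions of 14 d repeat 1 outside 16 h repeat 1 included those before UBI4 (polyubiquitin), SPG4 and DDR2 (genes named for stationary phase and DNA damage response), FAS1 (fatty acid synthase) and USV1 (a transcription factor). Their folds in 14 d repeat 1 were 9.47, 6.86, 8.39, 17.4 and 19.6. All 5 were also listed in 16 h repeat 2, at 13.7, 7.03, 8.12, 15.1 and 17.6. These 5 genes were chosen after their values were seen and do not stand for the 17. The highest folds of the 17 in 14 d repeat 1 were before other genes, IXR1 (24.4) and YHR033W (24.0).

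The shallow lists were also counted over the stronger regions of the deep lists. This largely reuses the peaks described above and is no separate result. Among the 105 tandem regions at or above the median fold of 14 d repeat 2, 7.21, the 43 ribosomal protein regions had a median fold of 18.7 and the 62 others of 12.1. The 14 d repeat 1 list held 3 of the 43 (6.98%, exact binomial 95% interval 1.46 to 19.1%) and 23 of the 62 (37.1%, 25.2 to 50.3%). The 16 h repeat 1 list held 10 of the 43 (23.3%, 11.8 to 38.6%) and 12 of the 62 (19.4%, 10.4 to 31.4%). With regions taken from 16 h repeat 2 (fold of at least 8.06), 14 d repeat 1 held 3 of 38 ribosomal protein regions and 20 of 49 others, and 16 h repeat 1 held 10 of 38 and 10 of 49. Ribosomal protein regions were thus strong in 14 d repeat 2 and mostly absent from the list of 14 d repeat 1. This count was made after the data were seen, and the part of depth in it was not tested. Its intervals cover counting error over the regions of a list, not the spread between cultures.

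The other fixed gene lists held 23 of the 230 regions, and their counts are set against the 8.33% and 6.89% of all core tandem gaps with a summit in 14 d and 16 h repeat 2. Glycolysis and fermentation had 10 genes downstream of a core tandem gap, with a peak at 0 and 4 in the 14 d repeats and at 2 and 6 in the 16 h repeats, or 40% and 60% in repeat 2. ADH1, the main alcohol dehydrogenase of fermentation, had a fold of 25.8 in 14 d repeat 2, and 7.01 and 20.2 in the 16 h repeats. TDH3, a glyceraldehyde-3-phosphate dehydrogenase, had 11.7 in 14 d repeat 2, and 5.66 and 12.7 in the 16 h repeats. PDC1, pyruvate decarboxylase, had 9.41 and 10.2, and FBA1, the aldolase, 4.21 and 3.85, in 14 d and 16 h repeat 2. The peaks before TPI1 and GPM1, triose phosphate isomerase and phosphoglycerate mutase, were listed in 16 h repeat 2 alone, at the low folds of 4.19 and 2.84.

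Translation factors had 21 genes behind a tandem gap, of which TEF1, YEF3 and HEF3 had a peak in both repeat 2 lists (14.3% each, against 8.33% and 6.89% of all tandem gaps). TEF1 encodes elongation factor eEF1A, and YEF3 and HEF3 encode the fungal elongation factor eEF3 and its paralog. The folds of YEF3 and HEF3 were 5.32 and 3.22 in 14 d repeat 2, against 4.73 and 4.05 in 16 h repeat 2. Hexose transporters had 7 genes and peaks before 4 of them in both repeat 2 lists (57.1% each, against the same 8.33% and 6.89%). Beside HXT5, described below with the regions found in all lists, they were HXT1 (8.35 at 14 d and 7.53 at 16 h), HXT6 (5.68 and 5.73) and HXT7 (2.83 and 2.93). HXT6 and HXT7 are near-identical neighbours, and how reads that match both were placed is not given in the sources used here.

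Amino acid synthesis genes had a peak in 5 of 48 tandem gaps in 14 d repeat 2 and in 3 in 16 h repeat 2, and in none in either repeat 1. These shares, 10.4% and 6.25%, were near the 8.33% and 6.89% of all tandem gaps. HOM6, homoserine dehydrogenase, had folds of 7.15 at 14 d and 10.4 at 16 h, SER3 of 5.42 and 6.38, and GLN1, glutamine synthetase, of 4.16 and 3.61. MET14 and ILV2 were listed in 14 d repeat 2 alone, at 5.10 and 4.24. Of 13 chaperone genes, 2 had a peak in both repeat 2 lists (15.4% each, against 8.33% and 6.89%), and both folds were higher at 14 d, as they were in 68.8% of all tandem regions shared by these lists. HSP26, a small heat shock protein, had 9.53 at 14 d and 5.15 at 16 h, and HSP78, a mitochondrial disaggregase, 13.5 and 6.67.

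Mitochondrial ribosomal proteins, which belong to the separate ribosome of that organelle, had 1 peak among 28 gaps in each repeat 2 list, before MRPL49 (3.22 at 14 d and 3.75 at 16 h). Ribosome assembly factors had none among 31 gaps in any list, and the single histone gene of the list with a tandem gap had none. Of 230 regions, 160 were downstream of genes in no fixed list.

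Among 10 genes of the Rap1 network, GCR1 had a peak in both repeat 2 lists, with folds of 4.95 at 14 d and 5.47 at 16 h. GCR1 encodes a co-activator that works with Rap1 at glycolytic and ribosomal protein promoters. Its summit lay 677 bp before the start at 14 d and 210 bp at 16 h, a shift of 467 bp, the largest among shared regions. The RAP1 gene itself had a peak 128 bp before its start codon in 16 h repeat 2 alone (chromosome XIV 241395 to 241722), with a fold of 11.3 and a summit pileup of 160 fragments. No list of 14 d held a peak there, and neither did 16 h repeat 1.

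The 8 regions found in all 4 lists allow the most direct view of the times. They lay before RPL2B, HXT5, MNN4, BDF1, RPL16B, ATG19, TEF1 and, in the ribosomal DNA, YLR154C-G. Outside the ribosomal DNA their summit pileups in 16 h repeat 1 ran from 7 (HXT5) to 17 (MNN4) fragments. The repeat 1 differences below rest on these small counts. Taking the strongest peak of a region in each list, 1 of these regions had both values at 14 d above both values at 16 h, and none had the reverse. Among all 29 core regions in 4 lists, whatever their class, 13.8% had times that did not overlap by the same measure.

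At the region before RPL2B (chromosome IX 316059 to 316648) the fold was 7.76 and 40.1 in the 14 d repeats and 9.19 and 42.7 in the 16 h repeats. The summit lay 398 to 412 bp before the start in every list. The region before TEF1 (chromosome XVI 699891 to 700515) had 11.1 and 39.5 at 14 d, and 10.6 and 29.1 at 16 h. By fold, at both regions the deep list stood far above the shallow one at each time, and the values of the times overlapped. RPL2B was lower at 14 d in repeats 1 and 2 by fold (log2 differences of -0.24 and -0.09). It was also lower over the genome background (-1.31 and -0.13). As log2 enrichment over the genome background, TEF1 was lower at 14 d in repeat 1 (log2 difference of -0.99) and higher in repeat 2 (0.22).

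HXT5, a hexose transporter used at slow growth, had folds of 13.2 and 32.9 at 14 d, and 5.66 and 24.1 at 16 h. The region (chromosome VIII 296632 to 297495) had its summit 570 to 600 bp before the start. RPL16B (chromosome XIV 495104 to 495648) had 5.91 and 35.3 at 14 d, and 4.79 and 16.7 at 16 h. In both regions the 14 d fold was the higher one in each repeat, but the shallow 14 d list lay below the deep 16 h list. As log2 enrichment over the genome background, RPL16B was lower at 14 d in repeat 1 (log2 difference of -1.14) and higher in repeat 2 (0.23), while HXT5 stayed higher in both (0.74 and 0.45).

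MNN4, a regulator of mannosyl phosphorylation of cell wall glycans, had 11.8 and 35.6 at 14 d, and 8.50 and 34.8 at 16 h (chromosome XI 67660 to 69740). Over the genome background MNN4 was lower at 14 d in both repeats, with log2 differences of -1.18 in repeat 1 and -0.06 in repeat 2. ATG19, a cargo receptor of a selective autophagy pathway, had 4.43 and 45.5 at 14 d, and 10.6 and 36.0 at 16 h. Its region (chromosome XV 167884 to 168568) lies between ATG34 and ATG19, which are related genes. The fold at ATG19 was higher at 14 d in repeat 2 and lower in repeat 1 (over the genome background it was lower in both, with log2 differences of -2.39 in repeat 1 and -0.07 in repeat 2), and its summit in 14 d repeat 1 lay 271 bp before the start, against 521 to 556 bp in the other lists.

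BDF1, a bromodomain protein that binds acetylated histones, had 7.39 and 28.8 at 14 d, and 6.36 and 46.5 at 16 h (chromosome XII 921564 to 922608). Over the genome background BDF1 was lower at 14 d in both repeats, with log2 differences of -0.79 in repeat 1 and -0.73 in repeat 2. Its summit was 318 bp before the start in 14 d repeat 1 and 727 to 763 bp in the other 3 lists. At this region and at ATG19 the summit of 14 d repeat 1 thus stood apart from the others by over 200 bp.

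The region without overlap of its strongest peaks was in the ribosomal DNA on chromosome XII (460844 to 468205), between the small open reading frames YLR154C-H and YLR154C-G. The fold of the strongest peak was 11.4 and 17.2 at 14 d, and 3.52 and 4.09 at 16 h, and its summit pileups were 1488 and 14190 fragments at 14 d, and 42 and 2266 at 16 h. The summit lay inside the ribosomal RNA precursor gene RDN37-2 in every list, so it was between tandem genes only because ribosomal RNA genes are not protein-coding. The 14 d repeat 1 list held a second, weaker peak in this gap, 3033 bp before YLR154C-G, with a fold of 3.01, which lay below both 16 h folds. The reference holds few copies of this repeat and cells hold many, so pileups there add up over copies.

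The median log2 fold over the 8 regions was 4.18 ± 1.37 at 14 d and 3.93 ± 1.49 at 16 h (SD, n = 2 each), a difference of 0.25 (two-sided exact permutation test, p = 0.667). It was 0.33 in repeat 1 and 0.16 in repeat 2, under the difference between repeats. Without the ribosomal DNA region it was -0.05, and as log2 enrichment over the genome background it was -0.58, so its direction is not settled.

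**Figure D4:**
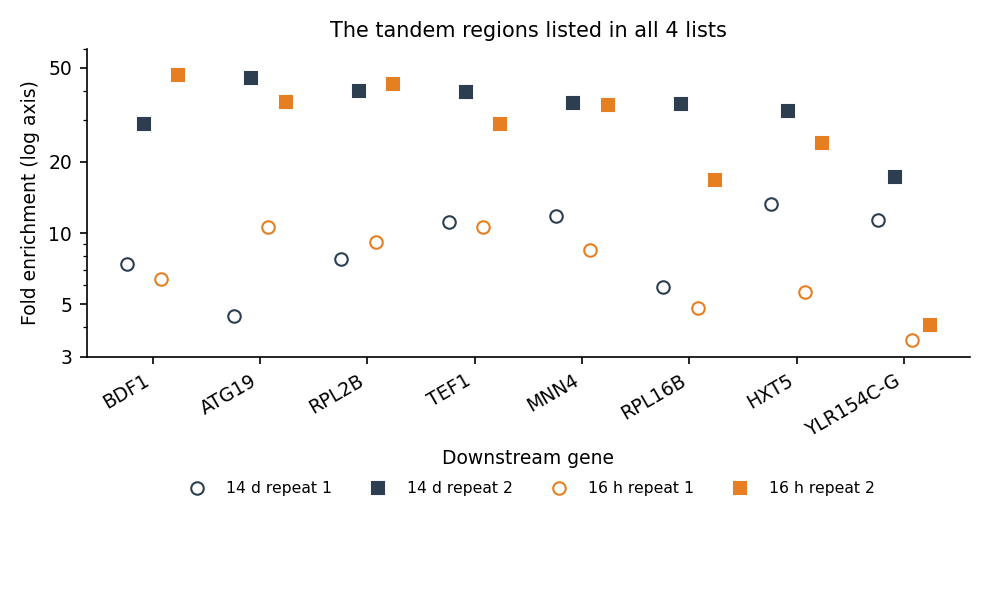
Fold enrichment (y axis, log axis) at the 8 tandem regions found in all 4 lists (x axis, by downstream gene), with 14 d in dark blue and 16 h in orange, open circles for repeat 1 and filled squares for repeat 2. Repeat 2 stood above repeat 1 of the same time at each region, and YLR154C-G was the one region where both 14 d values, 11.4 and 17.2, exceeded both 16 h values, 3.52 and 4.09. The strongest peak of each region in each list is shown.

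The other regions of the highest rank in repeat 2 were before YHR033W and YLR264C-A, whose roles are not given here. YHR033W, next to ERC1, had folds of 24.0 and 37.9 at 14 d and 43.6 in 16 h repeat 2. YLR264C-A, next to NEJ1, had 40.4 at 14 d and 36.6 at 16 h in repeat 2 alone, and its summit lay 99 and 98 bp before the start.

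The 2 deep lists shared most tandem regions. Of the 210 tandem regions of 14 d repeat 2, 156 (74.3%) had a peak in 16 h repeat 2, and of the 174 of 16 h repeat 2, 155 (89.1%) had one in 14 d repeat 2. These lists also shared 206 other core regions. Shares over all core regions are not given here, so this overlap is not read as particular to tandem regions. At the 154 regions tandem in both, Spearman's rho of the folds was 0.867, which describes 2 libraries and is not a test. Summits were at the same place to within 20 bp in 130 of 154 regions (84.4%), with a median shift of 6 bp. The shift exceeded 100 bp in 4 regions.

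The fold was higher at 14 d in 106 of the 154 shared regions (68.8%), with a median log2 difference of 0.28. Of the other core regions shared by these lists, 148 of 206 (71.8%) were higher, with a median of 0.33. When the summit pileup was instead set over the genome background of its library, 91 of 154 tandem regions were higher at 14 d and the median log2 difference was 0.16, against 130 of 206 and 0.15 in the other regions. By fold, 38 of 47 ribosomal protein regions were higher at 14 d (median 0.44) and 68 of 107 other tandem regions (median 0.21). Over the genome background these became 32 of 47 (0.18) and 59 of 107 (0.13). With 1 library per time in this comparison no test was made.

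**Figure D5:**
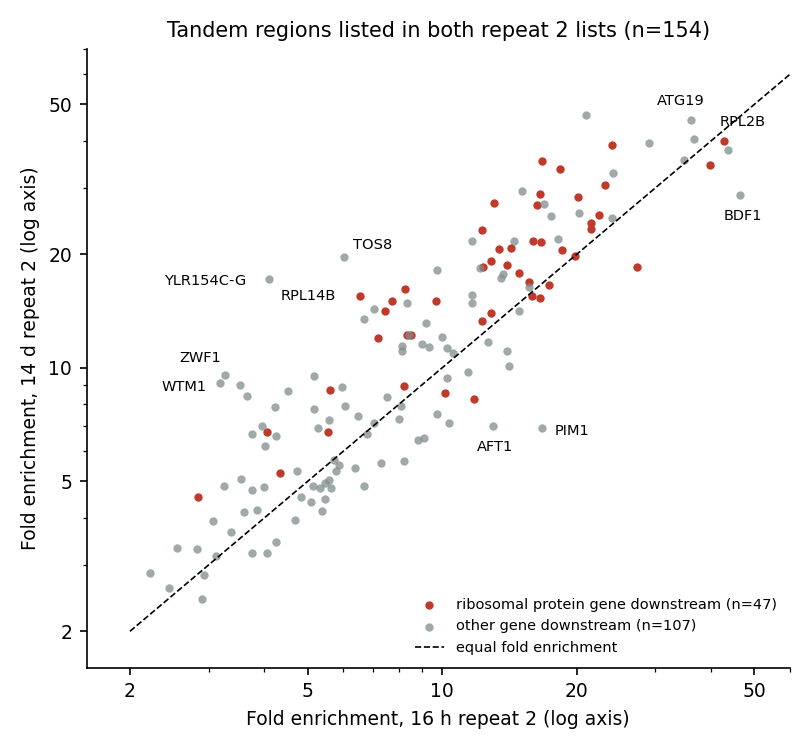
Fold enrichment in 14 d repeat 2 (y axis) against 16 h repeat 2 (x axis), both on log axes, at the 154 tandem regions that both lists held, with ribosomal protein regions in red and the others in grey. The dashed line marks equal fold, 106 regions lay above it, and TOS8 (19.7 against 6.04) and PIM1 (6.91 against 16.7) were far from it on either side.

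The largest differences within repeat 2, beyond the ribosomal DNA, were at TOS8, ZWF1 and WTM1 in one direction and at PIM1 and AFT1 in the other. These were chosen by their difference, which is given as a description. TOS8, a homeodomain transcription factor, had folds of 6.52 and 19.7 at 14 d and 6.04 in 16 h repeat 2 (chromosome VII 324415 to 325241, log2 difference in repeat 2 of 1.70). ZWF1, glucose-6-phosphate dehydrogenase of the pentose phosphate pathway, had 9.58 at 14 d and 3.27 at 16 h, and WTM1 had 9.11 and 3.17. PIM1, the mitochondrial Lon protease, had 6.91 at 14 d and 16.7 at 16 h (log2 difference of -1.27), and AFT1, the activator of iron uptake genes, 6.99 and 13.0. TOS8 was listed in 14 d repeat 1 and not in 16 h repeat 1, and the others in neither repeat 1, so no second pair of libraries bears on any of them.

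Regions listed in only 1 of the deep lists were mostly weak. The 54 regions of 14 d repeat 2 without a peak in 16 h repeat 2 had a median fold of 3.24, against 10.98 for the shared ones, and 2 of them exceeded the core median of the list. The 19 of 16 h repeat 2 had a median of 3.95, against 8.42, and 1 exceeded it. None of the 54 or of the 19 was before a ribosomal protein gene. Matching counts over all core regions are not given here, so none of this is read as particular to tandem regions. The difference in depth between these lists moves with these counts, and its part in them was not tested.

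The strongest regions of 14 d repeat 2 alone were before HSH49 (11.2), MOH1 (8.61), GPM2 (7.54), YPS1 (6.28) and SPS100 (5.12). HSH49 encodes a protein of the U2 snRNP, which recognises intron branch points, and its summit lay 1004 bp before the start. GPM2 is a homolog of phosphoglycerate mutase, YPS1 an aspartic protease of the cell surface, and SPS100 a gene of spore wall maturation. The strongest of 16 h repeat 2 alone were before RAP1 (11.3), YCK2 (5.98), TVP15 (5.65), CIA2 (5.17) and ORC2 (5.07). YCK2 encodes a casein kinase of the plasma membrane and ORC2 a subunit of the origin recognition complex.

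One region had a peak of any class in both repeats of 14 d and in neither of 16 h, and none had the reverse. The same count over all core regions is not given here, so this count is not read as a difference between the times. It lay between GTO3 and HOR7 (chromosome XIII 773776 to 774401), with a tandem summit at a fold of 4.63 in 14 d repeat 2 and a summit in coding sequence in 14 d repeat 1. Likewise the summit before YOR302W was tandem in 14 d repeat 1 (18.2) and 16 h repeat 2 (16.7) and fell in coding sequence in 14 d repeat 2. Membership of such regions turned on a small move of the summit.

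Tandem peaks were wider at 14 d in both repeats. The median width was 408.5 and 437 bp in the 14 d repeats and 235.5 and 328.5 bp in the 16 h repeats, which did not overlap (422.75 ± 20.2 bp and 282 ± 65.8 bp, SD, n = 2 each, two-sided exact permutation test, p = 0.33, the smallest possible). Within repeats 1 and 2 the difference was 173 and 108.5 bp. At the 154 shared regions of repeat 2 the peak was wider at 14 d in 147 cases, with a median width of 473.5 bp at 14 d and 341.5 bp at 16 h. Other core peaks had medians of 373 and 470.5 bp at 14 d and 267 and 340 bp at 16 h, so the difference was not confined to tandem gaps. Within each time the deeper list, repeat 2, had the wider tandem peaks. Between times, 14 d repeat 1, with a background pileup of 1.71, had wider peaks than 16 h repeat 2, with 8.87. The part of depth in these widths was not tested.

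RNA genes lay in some of these gaps. Of the tandem peaks, 2 of 26 and 21 of 210 at 14 d, and 2 of 22 and 12 of 174 at 16 h, had one in the gap. A transfer RNA gene was in the gap of 0 and 9 peaks at 14 d, and of 1 and 3 peaks at 16 h. Such genes lie in 121 of the 2498 core tandem gaps (4.84%), and 7.44% of those gaps held a summit in 14 d repeat 2 and 2.48% in 16 h repeat 2, against 8.33% and 6.89% of all tandem gaps. Examples were the gaps before SKN1 (15.6 at 14 d and 11.7 at 16 h), PSA1 (11.1 and 14.0) and RPL26A (15.5 and 15.9), all in repeat 2. The median fold percentile of peaks in such gaps was 25.1 for the 9 of 14 d repeat 2. For the 3 of 16 h repeat 2 it was 72.2, and the 1 of 16 h repeat 1 stood at 8.04. All 3 examples stood above that median in 14 d repeat 2. No summit lay inside an RNA gene other than RDN37-2.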

How the data were processed

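Rap1 ChIP-seq peak lists of 2 cultures at 14 d and 2 at 16 h were used, grouped by the time and repeat in their labels. The authors processed paired-end reads with Trim Galore, aligned them to genome release 64 using Bowtie2, and made 1 narrow-peak list per library with MACS2, using the input as control. Versions are not given in the sources used here. The deposited values are the fold enrichment (a ratio of summit pileup to local background), −log10 p, −log10 q, a score, which was not used, and positions, given here counted from 1. All move with depth.

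Summit pileup and background were solved from the deposited fold and −log10 p as a Poisson tail, assuming an unscaled ChIP pileup. Both values were met within 0.0001 (relative) for 100% of peaks. The lowest background was the depth measure. Genes came from the RefSeq table (6002 nuclear protein-coding genes), with strand from the systematic name. Chromosome ends were set to the furthest gene or peak. Regions joined peaks that overlapped by at least 1 bp.

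Times were compared with two-sided exact permutation tests over libraries, and classes of peaks with exact sign-flip permutation tests over the 4 libraries. Where nothing says how the repeats were grown, p-values measure only the spread between these samples. Other settings tried were peaks with −log10 q from 5 upwards, only the 56 strongest peaks by fold of each core list, a 20 kb window, flanking genes of any kind, the peak midpoint, 50% overlap, log2 enrichment over background, the replicate block, and each library left out. Members, gene lists and tests were chosen with earlier results of these data known. The tests of ribosomal protein against other tandem peaks, and of the upstream against the downstream distance, were added later.

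Named regions were those in all 4 lists, the 10 of best mean percentile in repeat 2, those in both repeats of 1 time only, downstream genes of the fixed lists, the extremes of distance, up to 3 gaps with a transfer RNA gene, and the 5 strongest of each deep list alone. Some items that this rule names are not reported here. A planned search for Rap1 motifs and the printing of promoter sequences were not run, because no genome sequence was used here. The scripts were tested on simulated data. Python 3.11.15, pandas 2.3.3, NumPy 2.4.6, SciPy 1.17.1 and matplotlib 3.10.9 were used.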

Additional observations from a re-analysis of the deposited data

How the results depend on the processing

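No test could pass 0.05 with these libraries (smallest p 0.33 between times and 0.13 over libraries), so the alternatives bear on direction alone. A −log10 q of at least 5 turned the difference between times in the tandem share to 2.07 points, and the percentile of tandem peaks against other core peaks to 2.48 and against divergent peaks to 3.09. The top 56 peaks of each list gave a difference in upstream distance of -13 bp and put ribosomal protein peaks 28.2 percentile points below other tandem peaks (-28.2). The log2 fold difference at shared regions became -0.58 as log2 enrichment over the genome background and -0.048 without the ribosomal DNA gap, a setting chosen after seeing the data. The cause was not tested. Leaving out 1 library gave, as 14 d minus 16 h, -7.31 to 3.23 points for the tandem share (3.23 without 14 d repeat 1), 18.25 to 88.75 bp for the downstream and 2.25 to 36.75 bp for the upstream distance, 94.25 to 187.25 bp for width, -28.5 to -10.05 points for the ribosomal protein share and -0.72 to 1.31 for the log2 fold (-0.72 without 14 d repeat 2 and -0.04 without 16 h repeat 1). The percentile difference of ribosomal protein peaks ran from -0.99 (without 14 d repeat 2) to 24.5. Over libraries, the ranges were -5.37 to -2.09 for tandem against other core peaks, -5.86 to -3.13 against divergent peaks, 83.8 to 98.8 bp for the nearest start, and -7.55 to -3.97 points for the ribosomal protein share. All other settings kept the direction.

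With the repeat number as a block, the replicate block gave the same differences as without it, for example -2.04 points for the tandem share, and its smallest possible p is 0.5. Deviations of the same-numbered libraries had a correlation of 0.457 over the 8 regions in all lists. Repeat 1 was the shallow library at both times, so the numbers share depth, and with 2 pairs they do not show a pairing. The repeat 1 lists were short and shallow, and a region missing from them is reported as not listed, not as unbound.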
